A study of Mus musculus with 2 samples.

Results

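The 6 microRNA genes described here, Mir10a, Mir10b, Mir196a-1, Mir196a-2, Mir196b and Mir615, lie inside the 4 mouse Hox clusters. The rule takes them by gene symbol and uses no measured value, although it was written with earlier results of these data known, and all 6 were found among the 1973 microRNA genes of the tables. GENCODE M21 places 7 microRNA genes within the outer Hox genes of these clusters, and the other, Gm44463 of the Hoxd cluster, was not analysed here. Small RNA under 30 bases was sequenced from the forebrain of newborn mice of strain B6NCrl (age 0 days, sex not collected), with no treatment or genetic change named in the labels. The single group holds 2 samples, each 1 forebrain, from pup 1 (replicate 1) and from pup 3 (replicate 2). There is no second tissue, age or genotype, so the design asks how much of each of these microRNAs a newborn forebrain holds and how far the pups differ.

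Hox genes encode transcription factors that set identity along the head-to-tail axis. The order of the genes in a cluster follows the order of their expression domains, so that genes with low numbers reach forward into the hindbrain and those with high numbers stay in the trunk and tail. The forebrain lies in front of these domains. The microRNAs between the Hox genes are expressed in like domains, and miR-10 and miR-196 are known to repress Hox messenger RNAs, miR-196 among them acting on Hoxb8. MicroRNAs act by pairing their seed, bases 2 to 8 counted from the 5′ end, with target messages.

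The mature sequences are shown because they set which reads could be told apart, and because members with the same seed share predicted targets. They come from RefSeq on GRCm38.p6, where all 6 members had an entry. Capitals mark the seed. The arms of miR-10 and miR-196 usually taken as the guide strand read as follows.
miR-10a-5p, chr11:96317186-96317208, plus strand: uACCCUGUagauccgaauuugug
miR-10b-5p, chr2:74726074-74726096, plus strand: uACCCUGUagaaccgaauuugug
miR-196a-5p, chr11:96265187-96265208 and chr15:102973365-102973386, plus strand: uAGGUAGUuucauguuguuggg
miR-196b-5p, chr6:52230129-52230150, minus strand: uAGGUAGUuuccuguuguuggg
The miR-615 arms had seeds of their own.
miR-615-5p, chr15:103014926-103014947, plus strand: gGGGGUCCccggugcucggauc
miR-615-3p, chr15:103014969-103014990, plus strand: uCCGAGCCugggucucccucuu

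The miR-10 arms shared 1 seed and differed at 1 of 23 bases, U12A (miR-10a-5p first, counted from 1 at the 5′ end). The miR-196 arms shared another seed and differed at 1 of 22 bases, A12C (miR-196a-5p first). Among 1679 mature names in the RefSeq table, no other had the miR-10 seed or the miR-196 seed, and the seeds of both miR-615 arms occurred under no other name. The longest run without a mismatch that miR-10a-5p or miR-10b-5p had in common with another annotated hairpin was 11 bases, as was that of miR-196b-5p. In contrast, miR-196a-5p is the same over all 22 bases at Mir196a-1 and Mir196a-2. Reads that mapped to several places were tallied apart and counted for no gene (43.0% of all reads in pup 1 and 43.5% in pup 3), so the counts of these 2 hairpins are uncertain. Only the opposite arms separate the 2 loci, and they are shown for that reason.
miR-196a-1-3p, chr11:96265225-96265246, plus strand: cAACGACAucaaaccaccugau
miR-196a-2-3p, chr15:102973401-102973422, plus strand: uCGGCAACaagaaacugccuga

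In the annotation (GRCm38), Mir10b (ENSMUSG00000065500) spans 74726070 to 74726137 on the plus strand of chromosome 2, in introns of the Hoxd3 and Hoxd4 gene models. Mir10a (ENSMUSG00000065519) spans 96317165 to 96317274 on the plus strand of chromosome 11, in no annotated host gene and 0.993 kb upstream of Hoxb4. Mir196a-1 (ENSMUSG00000065546) lies in the same Hoxb cluster from 96265164 to 96265265, between genes, 6.19 kb upstream of Hoxb9. Both miR-10 genes therefore sit at the Hox4 position of their clusters.

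The remaining 3 members lie further along the Hoxa and Hoxc clusters. Mir196b (ENSMUSG00000065443) spans 52230081 to 52230165 on the minus strand of chromosome 6, where it overlaps an exon of Hoxa9, 1.03 kb from Hoxa10. Mir196a-2 (ENSMUSG00000065488) spans 102973350 to 102973434 on the plus strand of chromosome 15, 1.46 kb past Hoxc10 and 3.005 kb before Hoxc9, inside an intron of a long Hoxc5 gene model. Mir615 (ENSMUSG00000076010) spans 103014910 to 103015001 on the same strand, also in an intron of Hoxc5, 3.93 kb before Hoxc4. The 3 miR-196 genes thus sit beside Hox9 or Hox10 genes, and Mir615 sits between Hoxc6 and Hoxc4.

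**Figure D1:**
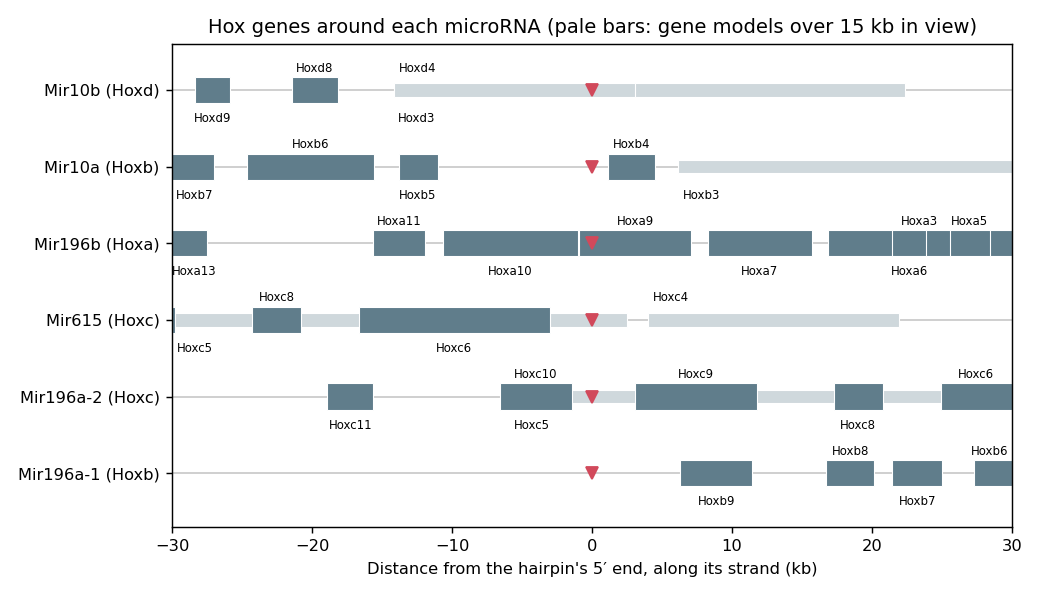
Hox gene models (bars) around each of the 6 microRNA hairpins (triangles at 0), drawn along the strand of the hairpin, with distance from the hairpin's 5′ end in kb on the x axis and 1 microRNA per row, ordered by level. The miR-10 genes have Hox3 and Hox4 genes beside them, and the miR-196 genes have Hox9 or Hox10 genes beside them.

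The miR-10 genes were present in both forebrains at a low level, Mir196b was lower at 93 and 35 counts, Mir615 and Mir196a-2 had 6 to 35 counts, and Mir196a-1 had no read. Values are counts per hairpin gene, with both arms pooled. CPM stands for counts per 1000000 reads assigned to microRNA genes (9037087 in pup 1 and 7678662 in pup 3). With 10 or more counts in both pups taken as detected, 4 of the 6 members were detected, against 433 of all 1973 genes (21.9%). Intervals are exact 95% Poisson intervals and cover counting error only. In whole tissue, fewer cells of a type and less RNA per cell cannot be told apart.

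Mir10b, known to repress Hoxd10 and to promote the spread of breast cancer cells, had 869 counts in pup 1 and 724 in pup 3. This was 96.2 CPM (89.9 to 102.8) and 94.3 CPM (87.5 to 101.4), or 95.2 ± 1.32 CPM (SD, n = 2). On the CPM scale the pups differed by less than the counting error, and their intervals overlapped. Under another scaling, given below, Mir10b was called higher in pup 3.

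Mir10a, the Hoxb copy of the family, had 758 counts in pup 1 and 365 in pup 3, which was 83.9 CPM (78.0 to 90.1) and 47.5 CPM (42.8 to 52.7). Its mean was 65.7 ± 25.7 CPM (SD, n = 2). Pup 1 was the higher, and the intervals did not overlap. The Mir10b share of miR-10 reads was accordingly 53.4% in pup 1 (exact binomial 95% interval 51.0 to 55.9) and 66.5% in pup 3 (63.6 to 69.3), a share that does not depend on how the libraries are scaled. It does depend on how reads were split between arms that differ at 1 base, and the handling of mismatches is not known.

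Mir196b, the miR-196 gene of the Hoxa cluster, known for its expression in blood progenitors and in MLL-type leukaemia, had 93 counts in pup 1 and 35 in pup 3. This was 10.3 CPM (8.31 to 12.6) and 4.56 CPM (3.17 to 6.34), with pup 1 again the higher. Mir196a-2 had 14 and 6 counts, 1.55 CPM (0.847 to 2.60) and 0.781 CPM (0.287 to 1.70), and these intervals overlapped. Mir196a-1 had 0 counts in both, with intervals that reach up to 0.408 CPM in pup 1 and 0.480 CPM in pup 3. These limits apply to reads assigned to that hairpin alone and not to miR-196a-5p, whose reads fit both hairpins.

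Mir615, a microRNA inside Hoxc5, had 35 counts in pup 1 and 10 in pup 3, which was 3.87 CPM (2.70 to 5.39) and 1.30 CPM (0.625 to 2.39). Pup 1 was the higher here too. On the CPM scale all 5 members with any count were higher in pup 1, which for Mir10b turned under TMM scaling.

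**Figure D2:**
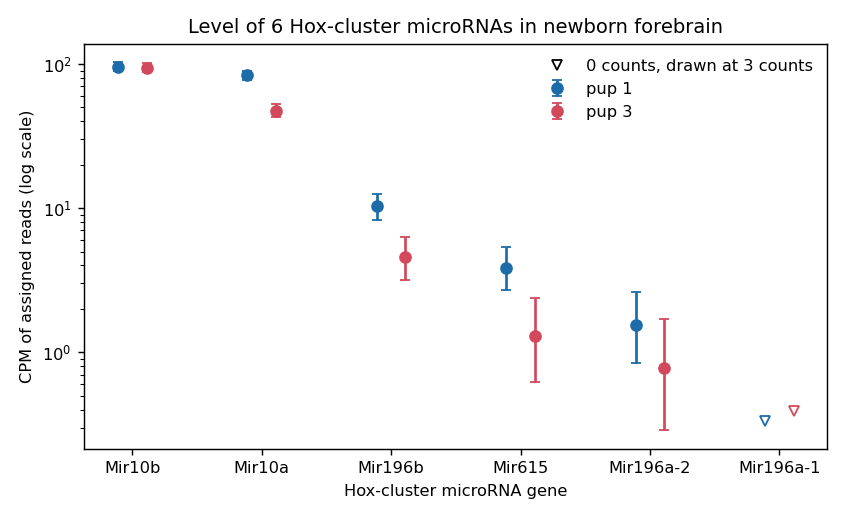
CPM of assigned reads on a log axis for the 6 members in pup 1 (blue) and pup 3 (red), with exact 95% Poisson intervals as bars and open triangles at the level of 3 counts where there were none. The miR-10 genes stand at 47.5 to 96.2 CPM, Mir196b at 4.56 to 10.3 CPM and the others below 4 CPM.

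By mean CPM the order was Mir10b, Mir10a, Mir196b, Mir615, Mir196a-2 and Mir196a-1, and all 15 pairs kept it in each pup and per 100 bases of hairpin. On the latter scale Mir10b stood at 140.03 CPM per 100 bases, Mir10a at 59.7, Mir196b at 8.73, Mir615 at 2.81 and Mir196a-2 at 1.37. By mean CPM alone, Mir10b was 1.45-fold above Mir10a. Mir196a-2 and Mir196a-1 were placed by assigned reads only, because a read that maps to both hairpins was counted for neither. Of the neighbours in this order, Mir615 and Mir196a-2 overlapped between pups (lowest Mir615 value 1.30 CPM, highest Mir196a-2 value 1.55 CPM). The values of Mir10b and Mir10a did not overlap (lowest 94.3 and highest 83.9 CPM), nor did those of Mir10a and Mir196b (47.5 and 10.3 CPM) or of Mir196b and Mir615 (4.56 and 3.87 CPM). These are ranges of 2 pups, and no test was made between genes.

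Together the members took 0.0196% of assigned reads in pup 1 (1769 counts, 95% Wilson interval 0.0187 to 0.0205) and 0.0148% in pup 3 (1140 counts, 0.0140 to 0.0157), or 0.0172% ± 0.00334 (SD, n = 2). The Hox4-side miR-10 genes made up 92.0% of these reads in pup 1 (exact binomial interval 90.6 to 93.2) and 95.5% in pup 3 (94.2 to 96.7). The 3 miR-196 genes beside Hox9 and Hox10 made up 6.05% (4.98 to 7.26) and 3.60% (2.59 to 4.85), and Mir615 made up 1.98% (1.38 to 2.74) and 0.877% (0.421 to 1.61). The miR-196 share leaves out any miR-196a-5p reads that were tallied as mapping to several places. Within miR-196, Mir196b held 86.9% in pup 1 (79.0 to 92.7) and 85.4% in pup 3 (70.8 to 94.4). Any such reads are missing from the Mir196a genes and not from Mir196b, so its share can be too high. The miR-196a-5p and miR-196b-5p arms also differ at only 1 base, and the handling of mismatches is not known.

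Among all 1973 genes, Mir10b ranked 225 in pup 1 and 211 in pup 3, above 88.6% and 89.3% of the genes. Mir10a ranked 234 and 257, Mir196b 313 and 344, Mir615 366 and 438, and Mir196a-2 438 and 478. Since 1239 genes in pup 1 and 1267 in pup 3 had no count, a high percentage below is reached with few reads. Among detected genes the median was 110.1 CPM in pup 1 and 87.1 CPM in pup 3. Mir10b was therefore under the median of detected genes in pup 1 and over it in pup 3, and the other members were under it in both.

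The genes of nearest mean level, taken over 2 samples and saying nothing of a shared profile, were Mir212 (95.8 CPM) and Gm25641 (94.6 CPM) around Mir10b. Around Mir10a they were Mir377 of the imprinted 12qF1 cluster (65.9 CPM) and Mir670 (65.5 CPM). Around Mir196b they were Mir3070a (7.43 CPM) and Mir7224 (7.40 CPM), and around Mir615 Mir5618 (2.60 CPM) and Mir1947 (2.43 CPM). The counts of Gm25641 and Mir3070a are uncertain, because each has at least 20 bases in common with another hairpin.

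**Figure D3:**
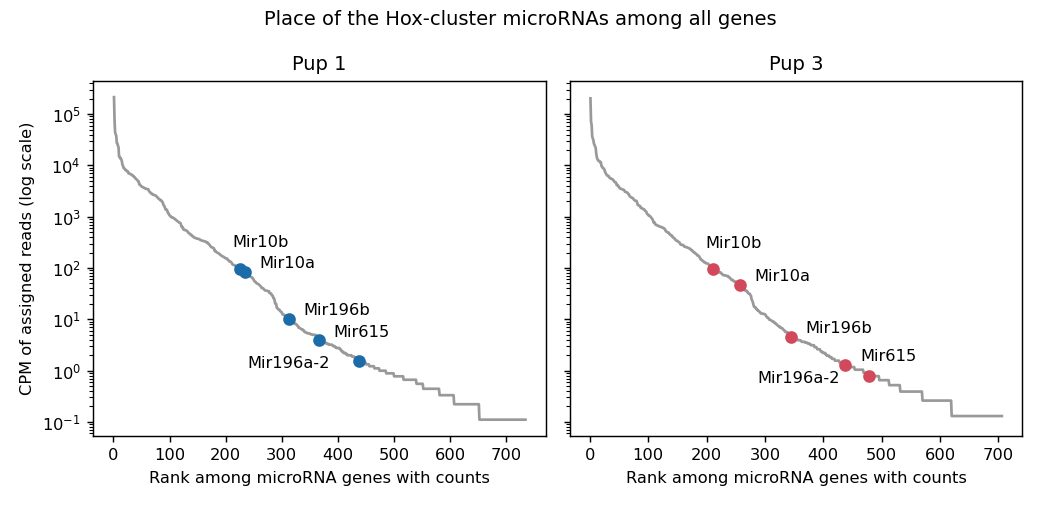
CPM on a log axis against rank for all microRNA genes with counts (grey line), with the members as points, pup 1 left and pup 3 right. Mir10b and Mir10a lie at ranks 211 to 257, and Mir196b, Mir615 and Mir196a-2 follow at ranks 313 to 478.

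Outside the Hox clusters the miR-10 family has close relatives, miR-99a, miR-99b and miR-100, whose sequence is shown beside that of miR-10 because their levels were so different.
miR-99a-5p, chr16:77598940-77598961, plus strand: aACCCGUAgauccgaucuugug
miR-100-5p, chr9:41531437-41531458, plus strand: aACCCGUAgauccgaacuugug
miR-99b-5p, chr17:17830194-17830215, plus strand: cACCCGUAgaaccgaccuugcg
The relatives shared 1 seed among themselves, which is not the miR-10 seed. The longest run in common was 11 bases between miR-10a-5p (bases 7 to 17) and miR-100-5p (bases 6 to 16), and 10 bases between miR-10b-5p and miR-99b-5p.

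Mir99a had 214362 CPM in pup 1 and 203022 CPM in pup 3, and was the most abundant gene of the tables. By CPM it was 2229-fold above Mir10b in pup 1 and 2153-fold in pup 3, and per 100 bases of hairpin 2332-fold and 2253-fold. Mir100 stood at 26911 and 23342 CPM. This was 280-fold and 248-fold above Mir10b by CPM, and 238-fold and 210.4-fold per 100 bases. Mir99b stood at 13773 and 11412 CPM, 143-fold and 121-fold above Mir10b by CPM, and 139-fold and 118-fold per 100 bases. In both pups the non-Hox relatives thus had more than 100 times the CPM of the Hox-cluster miR-10 genes. These are ratios of reads, and how well each sequence was captured in the libraries was not measured. None of these 3 hairpins, and neither miR-10 hairpin, shared a stretch of 20 or more bases with another.

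MicroRNAs of other tissues gave a scale for so low a level. Of the muscle list, 4 of 8 measured genes were detected, led by Mir206 of skeletal muscle (94.8 CPM in pup 1 and 44.5 CPM in pup 3) and Mir208b of the myosin gene Myh7 (63.8 and 31.9 CPM). The list took 0.0130% ± 0.00651 of assigned reads (SD, n = 2), against 0.0172% for the Hox-cluster genes. Of the liver, gut and pancreas list, 9 of 9 measured genes were detected, led by Mir375 of endocrine cells (314 and 245 CPM) and Mir192 (114.4 and 89.7 CPM), and the list took 0.0594% ± 0.00361. Of the pluripotency list, 4 of 9 were detected, led by Mir302a (44.4 and 36.5 CPM), which shares a stretch with another hairpin, and Mir302d (38.6 and 31.8 CPM), and the list took 0.0110% ± 0.00251. The Hox-cluster genes lay within the range of these lists in summed share. With every measured member kept, so did their median, at 7.08 CPM in pup 1 and 2.93 CPM in pup 3. The median was 3.98 and 2.08 CPM for muscle, 46.6 and 40.9 CPM for liver, gut and pancreas and 1.55 and 1.04 CPM for pluripotency, beside 0 over all 1973 genes in both pups. Without genes that share a stretch, the Hox-cluster median was 47.1 CPM in pup 1 and 26.0 CPM in pup 3. It was then 36.8 and 17.8 CPM for muscle, 46.6 and 40.9 CPM for liver, gut and pancreas and 0.775 and 0.521 CPM for pluripotency. On this basis the Hox-cluster median was above each of these lists in pup 1, but below liver, gut and pancreas in pup 3.

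The most abundant marker of each list of the labelled tissue and its other cells stood above Mir10b in both pups, while other markers of these lists did not. Mir137, a neural microRNA, stood at 24345 CPM in pup 1 and 33595 CPM in pup 3, and endothelial Mir126a at 40491 and 36865 CPM. Mir143 of smooth muscle stood at 5632 and 5002 CPM, while Mir214 of the same mural and mesenchymal list stood at 95.3 and 91.4 CPM. Erythroid Mir451a stood at 192 and 350.2 CPM, but Mir144 at 36.3 and 19.8 CPM and Mir486 at 11.7 and 9.12 CPM were below both miR-10 genes. Of the leukocyte and microglial list, Mir150 stood at 208 and 219 CPM, Mir223 at 118 and 144 CPM and Mir155 at 52.2 and 55.0 CPM. The reads counted for Mir142b of that list (249 and 339.5 CPM) all lay on the strand opposite to it. Hairpins of neural Mir124a and Mir9 had few counts in part (Mir124a-2 at 2.21 and 0.781 CPM), and all of those measured share a stretch with another hairpin.

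**Figure D4:**
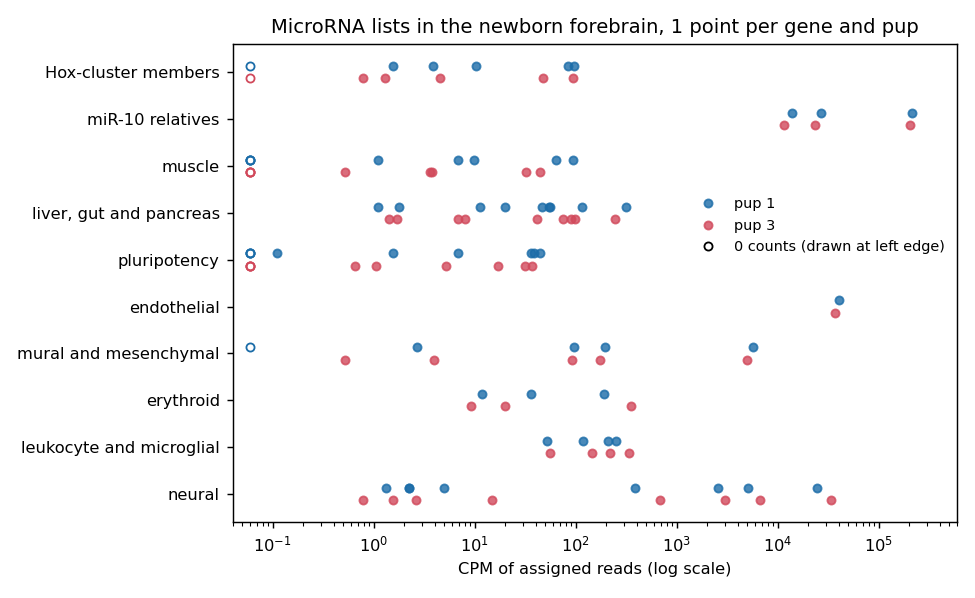
CPM of assigned reads on a log axis for each gene (point) of the lists named on the y axis, pup 1 in blue and pup 3 in red, with genes of 0 counts as open points at the left edge. Hox-cluster members reach 96.2 CPM, about as high as muscle genes at 94.8 CPM, while the miR-10 relatives start at 11412 CPM.

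Between the pups, Mir10a, Mir196b and Mir615 were lower in pup 3, while Mir10b was not. The ratio of pup 3 over pup 1 was taken after adding 0.5 to each count and scaling with TMM factors from edgeR. A two-sided exact binomial test was run over the 460 genes that reached 20 counts in all (Benjamini-Hochberg adjustment, called at 0.05). This test compares 2 libraries and not conditions. Of all genes tested, 63% were called, 32.8% lower and 30.2% higher in pup 3, so a call alone did not set a gene apart. Of the 6 members, 5 reached the minimum total, and 3 were called lower, 1 higher and 1 not. Their median log2 ratio was -0.72, beside -0.02 over all genes tested.

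Mir10a was lower in pup 3 by a log2 ratio of -0.62 (95% interval -0.80 to -0.44; 1.53-fold; exact binomial adjusted p = 1.62e-11). Of 71 other genes with a total within 2-fold of its own, 9 had a lower ratio, and their median absolute log2 ratio was 0.35. Mir196b had a log2 ratio of -0.96 (-1.58 to -0.40; exact binomial adjusted p = 0.000870), and 8 of 74 such genes lay below it. Mir615 had -1.32 (-2.55 to -0.33; exact binomial adjusted p = 0.0107), and 4 of 99 such genes lay below it. The difference of Mir10a was thus beyond the typical difference between the pups of genes of like total, and those of Mir196b and Mir615 were also in the lower part of such genes.

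Mir196a-2 had a log2 ratio of -0.72 with a wide interval (-2.45 to 0.68; exact binomial adjusted p = 0.440), so that a difference was not detectable at 20 counts in all. Mir196a-1 had no counts and was not tested. Mir10b was called higher at a log2 ratio of 0.17 (0.03 to 0.32; exact binomial adjusted p = 0.0300) under TMM, but its ratio was -0.028 with total counts as the scale, with an adjusted p of 0.768, and 0.15 with an adjusted p of 0.0553 on sense-strand counts alone. Total counts moved the median of all genes tested from -0.02 to -0.22, and raised the lower genes from 52.1% to 67.8% of those called. Mir10a, Mir196b and Mir615 were called lower under both scalings.

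Muscle microRNAs moved the same way between these libraries. Of 4 tested, 3 were called lower in pup 3 and 0 higher, with a median log2 ratio of -0.84: Mir206 had -0.89, Mir208a -1.20 and Mir208b -0.80, while Mir499 had -0.65 and was not called (exact binomial adjusted p = 0.0666). Of the 8 measured muscle genes, 3 of the shared-stretch kind (Mir1a-1, Mir133a-1 and Mir133a-2) were at 0 in both pups, and the list's summed level was 0.0176% of assigned reads for pup 1 and 0.00844% for pup 3. Under total counts all 4 were called lower, but so were 206 of all 460 genes tested, against 151 under TMM. Of 8 neural genes, 5 were called higher in pup 3 and 0 lower (5 and 1 under total counts), beside 30.2% called higher over all genes tested. Mir137 was called higher (log2 ratio 0.66), while Mir124a-2 had -1.22 and was not called (exact binomial adjusted p = 0.0728). Of the neural genes, only Mir137 shared no stretch with another hairpin. The summed level of the neural list was 3.24% in pup 1 and 4.40% in pup 3. Under TMM all 4 measured leukocyte and microglial genes were called higher in pup 3, and under total counts 2 were. Their summed level was 0.0627% for pup 1 and 0.0758% for pup 3, or 0.0378% and 0.0418% without Mir142b. Of 3 erythroid genes, Mir451a was called higher (log2 ratio 1.07), Mir144 was called lower (-0.67) and Mir486 was not called, with a summed level of 0.0240% for pup 1 and 0.0379% for pup 3. Of 9 liver, gut and pancreas genes, 2 were called higher and 2 lower (median log2 ratio -0.09). Of 5 pluripotency genes, 0 were called higher and 1 lower (-0.19), and of 4 mural and mesenchymal genes 1 higher and 0 lower (0.09). Endothelial Mir126a was called higher (0.06), and of 3 miR-10 relatives 1 was called higher and 1 lower (median -0.005). Under total counts, calls in these lists were 4, 3, 2, 1 and 3 lower, and 2, 0, 0, 0 and 0 higher. The part of any of these cells in the Hox-cluster difference was not tested.

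**Figure D5:**
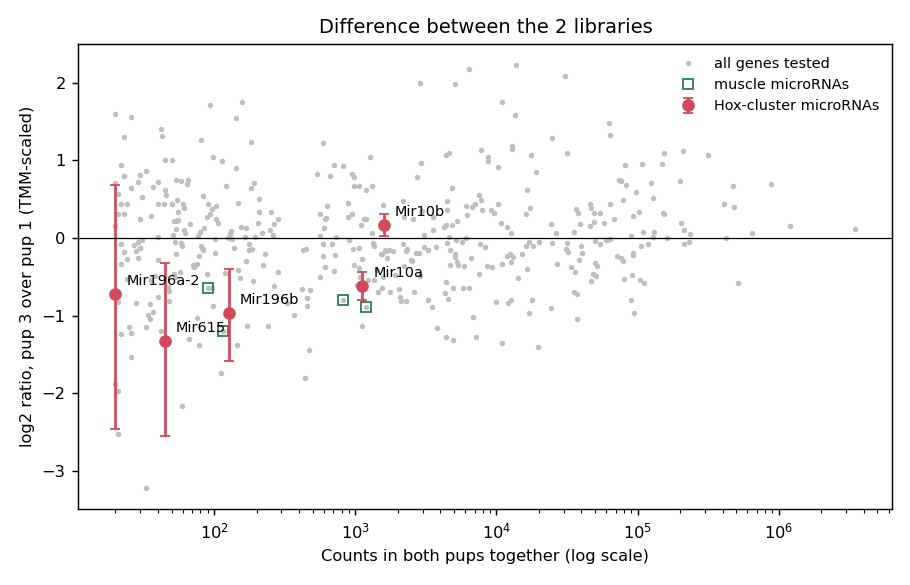
The log2 ratio of pup 3 over pup 1 (TMM-scaled) against the total count of both pups on a log axis, for the 460 genes tested (grey), 4 muscle genes (squares) and 5 Hox-cluster members (red, with exact 95% binomial intervals). Mir10b lies just above 0, which turned to just below 0 under total counts, and the other 4 members lie at -0.62 to -1.32. Tested genes of the other comparison lists are among the grey points and are not marked.

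The reads of these genes lay on the annotated strand. Mir10b, Mir196a-2, Mir196b and Mir615 had 0 reads on the opposite strand in both pups, and Mir10a had 0 of 365 in pup 3 and 5 of 758 in pup 1 (0.660%, 95% Wilson interval 0.282 to 1.53). Over all genes, the share of opposite-strand reads was 2.69% for pup 1 and 1.91% for pup 3.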

How the data were processed

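Small RNA libraries of 2 newborn forebrains were analysed. Per the labels, they come from separate pups (pup 1 and pup 3) of 1 group that list the same donor record, so the spread is that between these 2 samples. The deposited values are raw read counts per microRNA gene on mm10 with annotation release M4, per the notes beside the tables. No source used here names the aligner, the counting tool or their settings. Each table has 3 count columns. In all 1973 genes the first equals the sum of the others, which were read as sense and opposite strand, and the first was used. The 4 tallies without a gene name stayed out of library sizes. Reads assigned to genes were 40.2% of 22470992 in pup 1 and 40.8% of 18798326 in pup 3. No molecular identifiers are named.

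Names, positions and hairpins came from GENCODE M21 (GRCm38), which matched 1894 identifiers, and mature sequences from RefSeq (GRCm38.p6). A hairpin was called shared when 20 or more bases, on either strand, occurred in another of 2202 annotated hairpins. Neither search covered the genome. TMM factors (1.07 and 0.933) came from edgeR 4.0.16. With 1 group there is no contrast for an edgeR test, so exact binomial tests between the libraries were used. Alternatives tried were DESeq2 1.42.0 size factors, totals, single strand columns, other minimums and each pup alone. Software was R 4.3.3, Python 3.11.15 and scipy 1.17.1.

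The members and lists were chosen with earlier results of these data known. The text names all members, the miR-10 relatives, the 2 most abundant genes of the muscle, gut and pluripotency lists, and the genes ranked next to each detected member by mean CPM. Marker genes and the other muscle genes were named after their values were seen.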

Additional observations from a re-analysis of the deposited data

Results flagged for a closer look

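Reads on the strand opposite to Mir10a lie outside the main measurement. There were 5 such reads in pup 1, above the floor of 3 counts set for a count of 0, and 0 in pup 3, while no other member had any. They made up 0.660% of the reads counted for Mir10a in pup 1, under the 2.69% of assigned reads opposite to the named gene over all genes of that library.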

How the results depend on the processing

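The summed share of the members was 0.0172% of assigned reads, 0.0148% to 0.0196% with either pup alone, and 0.00697% of reads of all kinds. On the opposite-strand column alone it was 0.00103% of that column's reads, with 0 members detected. Of the 6 members, 4 were detected at 10 counts in both pups, 2 at 100 counts, 2 at 10 CPM, and 4 or 5 with either pup alone. The ratio of Mir10b turned from 0.17 to -0.028 under total counts and to -0.0057 under all reads. Mir10a, Mir196b and Mir615 were called lower under every alternative in which they could be tested, and 3 or 4 members were called in each. Mir10b was not called under totals, under all reads or on the sense column. At a minimum total of 100 counts Mir615 and Mir196a-2 were not tested, and on the opposite-strand column no member could be. The order of the members was the same per 100 bases and with either pup alone, and was not recomputed under other settings. Calls within the comparison lists under other scalings, and without Mir142b, were added after the data were seen. No paired analysis was possible because there is 1 group. Depth limits Mir196a-1, Mir196a-2 and Mir615 most, and for the Mir196a pair the counts also leave out any read that maps to both hairpins.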
